A study of Mus musculus with 12 samples.

Results

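Cultured astrocytes from the brains of Rack7-cKO mice taken at postnatal day 6 (P6) were compared with those taken at day 1 (P1). These are 4 of the 12 RNA-seq libraries of the series, 2 at each day, and they were chosen by the genotype and day in their labels alone. The other 8 libraries hold the WT cultures of P1 and P6 and both genotypes at P8, and they enter here to share the estimate of spread and to show where the cKO values differ. The comparison asks which genes differ in level between cultures labelled as lacking RACK7 that were started from brains of these 2 ages. Both ages lie in the period in which cortical astrocytes are being generated.

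RACK7, encoded by *Zmynd8*, is a chromatin reader with a zinc finger, a bromodomain and a PWWP domain that takes part in transcriptional repression. Rack7-cKO mice carry hGFAP-cre with both copies of *Rack7* floxed (hGFAP-cre::Rack7 fl/fl), made in C57BL/6 zygotes, so that Cre removes exons 3 and 4 in the multipotent progenitors of the dorsal forebrain and their progeny. WT mice carry hGFAP-cre with both *Rack7* copies intact (hGFAP-cre::Rack7 +/+). The human GFAP promoter does not act in every brain cell, and cells from outside that lineage keep the gene. According to the methods, meninges were stripped from the brains, the dissociated cells were grown on Matrigel in astrocyte medium, and microglia and oligodendrocytes were shaken off. The cells were cultured for days before the shaking and for further days after it, until confluent. The days in the labels are thus the ages of the mice at dissection, and a step between them compares separate cultures. The labels name 2 biological replicates per group, and mice of both sexes were used in the study. Whether a replicate was a single animal or a pool was not given in the sources used here.

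The 4 libraries held between 54413504 and 68048123 counted reads, and 17223 autosomal genes passed the filter on low counts. Levels are given as CPM, the reads of a gene scaled for the depth of its library, and the value of each library is stated before a test. The P1 and P6 libraries differed in the sex of the cells. *Xist*, the RNA that coats the inactive X chromosome, was at 0.442 and 0.685 CPM in the P1 libraries labelled Rack7-cKO and at 825 and 1036 CPM in those of P6. The Y-linked *Ddx3y*, *Eif2s3y*, *Kdm5d* and *Uty* lay between 38.5 and 127 CPM at P1 and between 0 and 0.0622 CPM at P6. The WT libraries of P1 and P6 had the same pattern, and the P8 libraries had that of P1. Day and sex therefore cannot be told apart between P1 and P6 with either label, and only autosomal genes are described. The P8 libraries, which share the pattern of P1, are given beside some of the results for that reason. Globin transcripts were also counted at P1: *Hbb-bs* and *Hba-a1* were at 59.3 and 72.00 and at 49.4 and 53.9 CPM at P1, and no read of either was counted at P6. *Hba-a1* has a near-identical copy that may share its reads. With 3 counts taken as the floor of a group without reads, they were at least 2839-fold and 2237-fold lower at P6.

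Astrocytes in culture respond to interferons, which act on an element in target promoters and switch on antiviral genes and the genes that load peptides on MHC class I. They also secrete chemokines, complement and matrix, and immediate-early genes such as *Fos* and *Egr1* rise in them within minutes of a stimulus. Matrix of fibrillar collagens and small leucine-rich proteoglycans is at the same time typical of meningeal fibroblasts, and complement and scavenger receptors are typical of microglia, so the markers of both cell types are given beside those groups.

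The sequences that bear on the largest coordinated fall are those of interferon-stimulated promoters, and they are shown because most members with a known promoter carried the interferon-stimulated response element. Upstream windows of 250 bases before the RefSeq start on GRCm38.p6 were searched on both strands for the letters GAAANNGAAA, or TTTCNNTTTC on the other strand. Of 40 interferon-stimulated genes tested, 29 had a window, and 16 of these (55.2%) held a match. The letters were found for 3.46% of all 27025 genes with a window, for 9.25% of the 1254 autosomal genes with a window that fell from P1 to P6, and for 2.19% of the 1277 that rose. Of the 15 MHC class I and antigen presentation genes with a window, 3 held them. The 5 members with a match that fell most are printed from 5′ to 3′ on the strand of the gene, with each match in capitals, and overlapping matches run together.

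*Oas3*, chr5:120777660-120777909, minus strand: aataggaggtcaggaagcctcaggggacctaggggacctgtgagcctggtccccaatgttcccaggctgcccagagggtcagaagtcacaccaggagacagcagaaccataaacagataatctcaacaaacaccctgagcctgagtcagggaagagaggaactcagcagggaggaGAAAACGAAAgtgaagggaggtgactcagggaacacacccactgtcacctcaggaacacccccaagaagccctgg

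*Gbp2*, chr3:142620413-142620662, plus strand: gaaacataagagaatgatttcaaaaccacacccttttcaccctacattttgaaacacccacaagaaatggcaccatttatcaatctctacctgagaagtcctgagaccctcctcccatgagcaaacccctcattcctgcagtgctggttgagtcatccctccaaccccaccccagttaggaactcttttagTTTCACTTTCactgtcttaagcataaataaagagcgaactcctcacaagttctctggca

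*Rsad2*, chr12:26456453-26456702, minus strand: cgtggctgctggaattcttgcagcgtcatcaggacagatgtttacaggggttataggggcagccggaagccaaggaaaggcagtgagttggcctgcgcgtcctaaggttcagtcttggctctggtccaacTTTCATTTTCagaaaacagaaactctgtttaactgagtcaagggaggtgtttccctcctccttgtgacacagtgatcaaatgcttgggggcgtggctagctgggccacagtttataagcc

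*Gbp3*, chr3:142559794-142560043, plus strand: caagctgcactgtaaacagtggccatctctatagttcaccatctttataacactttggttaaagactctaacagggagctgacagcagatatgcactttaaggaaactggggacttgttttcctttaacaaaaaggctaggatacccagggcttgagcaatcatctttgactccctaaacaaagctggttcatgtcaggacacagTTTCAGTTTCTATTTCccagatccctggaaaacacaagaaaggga

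*Isg15*, chr4:156200819-156201068, minus strand: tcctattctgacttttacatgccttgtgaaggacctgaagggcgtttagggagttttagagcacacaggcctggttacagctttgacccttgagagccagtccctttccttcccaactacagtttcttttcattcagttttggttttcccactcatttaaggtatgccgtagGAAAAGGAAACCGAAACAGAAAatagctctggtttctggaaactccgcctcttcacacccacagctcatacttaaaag

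The match nearest the start began 75 bases before it in *Oas3*, 59 in *Gbp2*, 120 in *Rsad2*, 39 in *Gbp3* and 66 in *Isg15*, which held 3 overlapping matches. *Oas3* makes the oligoadenylates that activate RNase L, the guanylate-binding proteins *Gbp2* and *Gbp3* attack the vacuoles of pathogens, *Rsad2* encodes viperin, and *Isg15* encodes a ubiquitin-like modifier. *Gbp2* was at 224 and 242 CPM at P1 and 18.5 and 16.4 CPM at P6, and *Rsad2* at 138 and 148 CPM at P1 and 11.5 and 11.5 CPM at P6. *Gbp3* was at 197 and 196 CPM at P1 and 19.8 and 15.04 CPM at P6, and *Isg15* at 119 and 119 CPM at P1 and 13.8 and 7.65 CPM at P6. In each of these genes both P6 libraries lay far below both P1 libraries, with log2 fold changes between -3.74 and -3.47 for these 4. The 13 members whose window held no match also fell, *Oasl1* and *Ifi44* below among them, with a median log2 fold change of -2.11 beside -2.96 for the 16 with a match. A match describes letters in a window and no occupied site.

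The targeted gene was examined first. *Zmynd8* (ENSMUSG00000039671, GRCm38 chromosome 2, 165784152 to 165899016, minus strand) was at 213 and 216 CPM at P1 and 242 and 230.5 CPM at P6 in the libraries labelled Rack7-cKO and at 136 and 136 CPM at P1 and 114 and 116 CPM at P6 in those labelled WT. It was thus higher under the cKO label at both days, against the direction of the label. From P1 to P6 it changed by 0.14 on the log2 scale under the cKO label (standard error 0.047, edgeR adjusted p = 0.0408), under the fold change of 1.5 required for a call. Exons that Cre leaves in place also give reads to the gene's count, so the count does not check the deletion, and its span overlaps *BC046401* and *Gm11465*. The study examined the protein itself, by immunoblot of WT and Rack7-cKO primary astrocytes. Its ChIP-seq with a RACK7 antibody found far fewer peaks in cKO than in WT astrocytes. The libraries are called cKO-labelled and WT-labelled below.

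A gene was called when the quasi-likelihood test of edgeR, adjusted by the Benjamini-Hochberg method over all genes tested, gave an adjusted p below 0.05 and the fold change was at least 1.5. Between P1 and P6 in the cKO-labelled cultures 3686 autosomal genes (21.4% of 17223) were called, of which 1885 rose (10.9%) and 1801 fell (10.5%). At the cut-offs named in the methods, read as an unadjusted p, 2133 rose (12.4%) and 2018 fell (11.7%). Genes that fell moved further: the median log2 fold change was -1.28 for them and 1.05 for those that rose, and 312 fell by at least 8-fold whereas 151 rose by as much. Over all autosomal genes tested the median was 6.05e-05. The WT-labelled cultures over the same days had 2108 rises (12.2%) and 1875 falls (10.9%).

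Gene lists separated into those that moved one way and those that split. The interferon-stimulated, MHC class I and chemokine lists lay lowest, the immediate-early genes lay highest, and the matrix lists had members with large changes both ways, as the plot of list members shows. List counts below are read against the shares of 10.9% and 10.5% for all autosomal genes. The directions below in which edgeR called none also had none at an unadjusted p below 0.05 with a fold change of 1.5, and none with DESeq2. By unadjusted p alone there were 5 falls among the mitosis genes and 1 rise and 4 falls among the PRC2 subunits, and none elsewhere.

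**Figure D1:**
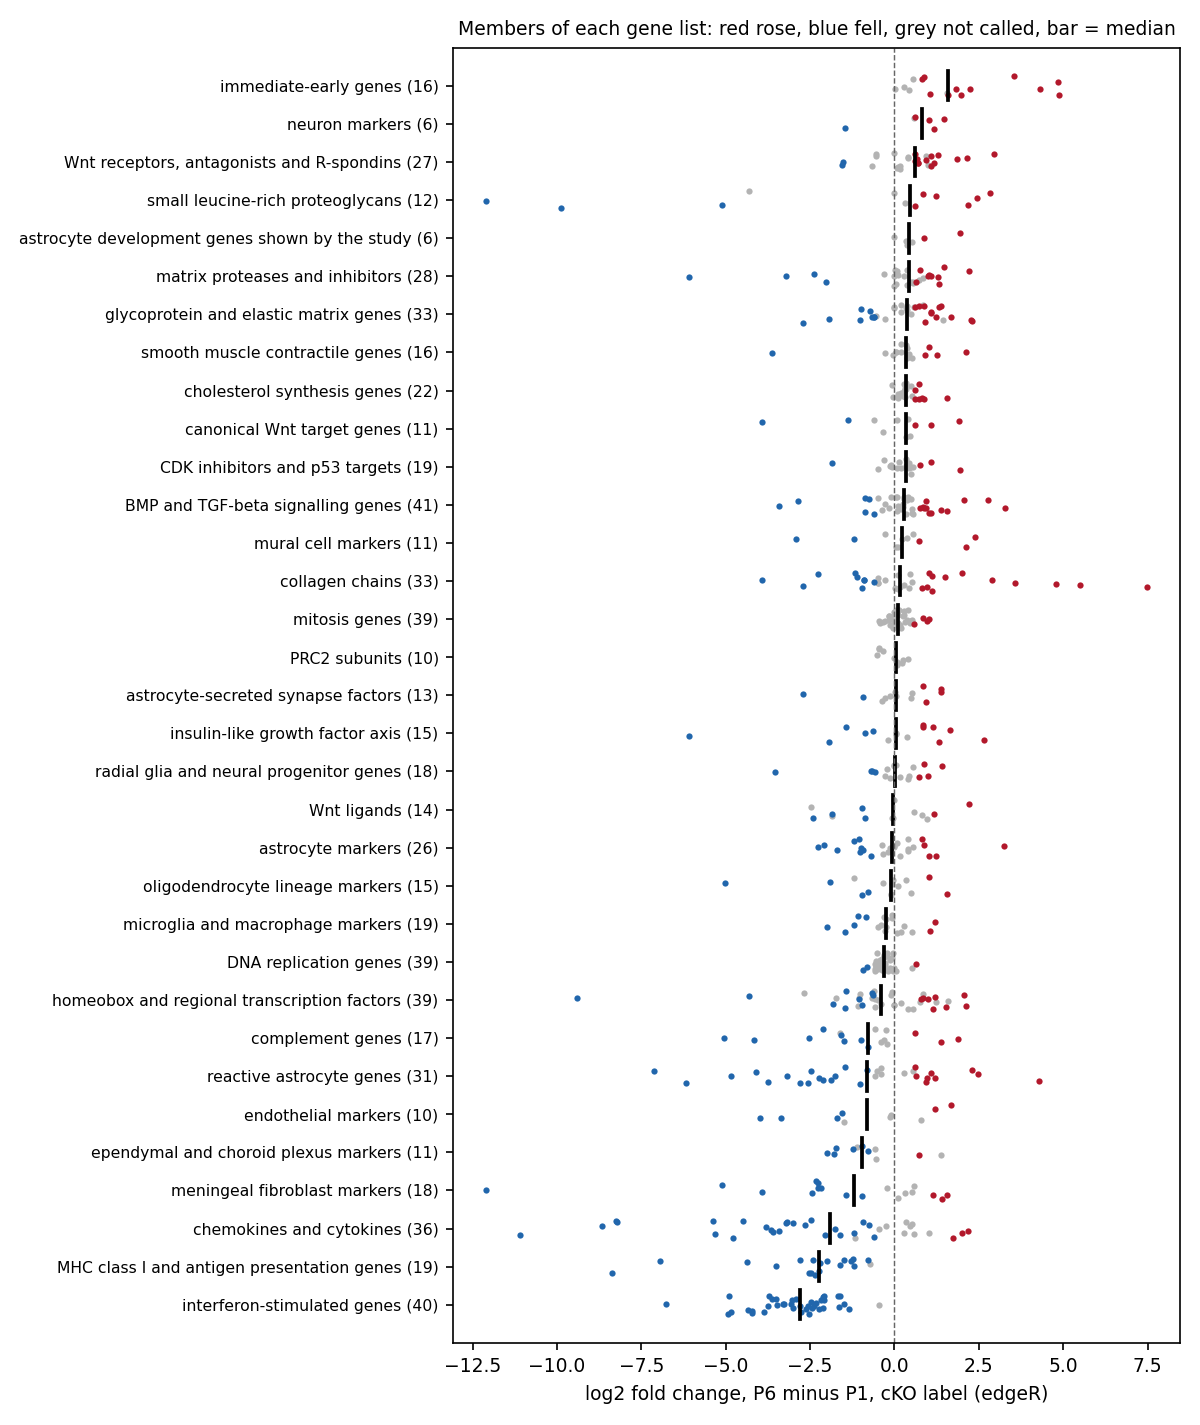
Log2 fold change from P1 to P6 in the cKO-labelled cultures (x axis, edgeR) for the members of 33 gene lists (rows, number tested in brackets), with a point per gene, red for genes that rose, blue for genes that fell, grey for genes not called, and a bar at the median. Medians run from -2.79 for the 40 interferon-stimulated genes to 1.58 for the 16 immediate-early genes.

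Of the 40 interferon-stimulated genes 39 fell and none rose, with a median log2 fold change of -2.79. The summed level of the list was 6711 and 6869.8 CPM in the P1 libraries and 1257 and 1021 CPM in the P6 libraries. *Oasl1* (ENSMUSG00000041827, GRCm38 chromosome 5, 114923240 to 114937915, plus strand), an oligoadenylate synthetase-like gene, was at 31.1 and 32.8 CPM at P1 and 0.579 and 0 CPM at P6 (log2 fold change -6.77, standard error 0.71, edgeR adjusted p = 7.17e-05). *Ifi44*, an antiviral gene named for its induction by interferon, was at 159 and 165 CPM at P1 and 6.94 and 3.72 CPM at P6 (log2 fold change -4.92, standard error 0.68, edgeR adjusted p = 0.000406). For *Oas3* the libraries read 85.2 and 95.1 CPM at P1 and 3.61 and 2.38 CPM at P6 (log2 fold change -4.91, standard error 0.47, edgeR adjusted p = 3.68e-05). A member with a high mean count fell as well. *Ifit3*, whose product holds back viral RNA, was at 546 and 583 CPM at P1 and 87.1 and 63.5 CPM at P6 (log2 fold change -2.91, standard error 0.58, edgeR adjusted p = 0.00346). Both P6 libraries lay below both P1 libraries in all 40 members, where 68.0% of autosomal genes had libraries separated in one direction or the other. *Ifi27* alone was not called, at 161 and 161 CPM at P1 and 136 and 95.8 CPM at P6 (log2 fold change -0.47).

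Antigen presentation genes fell alongside them, 18 of 19 with none rising and a median of -2.23. *H2-Q6* (ENSMUSG00000073409, GRCm38 chromosome 17, 35424850 to 35430055, plus strand), a class I gene of the Q region, was at 93.8 and 94.8 CPM at P1 and 0.411 and 0.156 CPM at P6 (log2 fold change -8.36, standard error 0.43, edgeR adjusted p = 7.78e-07), and its neighbour *H2-Q7* at 84.9 and 89.4 CPM at P1 and 0.822 and 0.591 CPM at P6 (log2 fold change -6.94, standard error 0.28, edgeR adjusted p = 1.77e-07). *H2-Q4* was at 271 and 273 CPM at P1 and 15.5 and 11.05 CPM at P6 (log2 fold change -4.36, standard error 0.23, edgeR adjusted p = 9.48e-07). These genes are close copies of each other, and how reads that match several copies were counted was not given in the sources used here. *H2-D1*, a classical heavy chain, was at 1293 and 1334 CPM at P1 and 197 and 181 CPM at P6 (log2 fold change -2.80, standard error 0.065, edgeR adjusted p = 6.46e-09). *B2m*, the light chain that all class I molecules share, was at 3040.3 and 3028 CPM at P1 and 605 and 530.4 CPM at P6 (log2 fold change -2.42, standard error 0.070, edgeR adjusted p = 2.15e-08) and has no close copy. Both the variable heavy chains and the single light chain were thus lower in both P6 libraries.

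The same lists fell with the WT label. There 37 of 40 interferon-stimulated genes fell and 1 rose (median -2.20), with the 2 P6 libraries apart at summed levels of 1047 and 2300.1 CPM, and 17 of 19 antigen presentation genes fell and 1 rose (median -1.99). The difference between the 2 steps passed an adjusted p below 0.05 for 3 interferon-stimulated genes and 1 antigen presentation gene, all more negative under the cKO label. In the cKO-labelled P8 libraries, which share the sex pattern of P1, the interferon list summed to 4139.5 and 4214 CPM and the antigen presentation list to 5643 and 5615 CPM. The latter stood at 7147 and 7219.9 CPM at P1 and at 1337 and 1201 CPM at P6. P6 was thus the lowest of the 3 donor ages for both lists, and it was also the age with the other sex pattern. The summed microglia and macrophage markers were higher at P8 as well, at 12609 and 12772 CPM against 6311 and 6274 CPM at P6, and their part in the higher P8 levels was not tested.

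**Figure D2:**
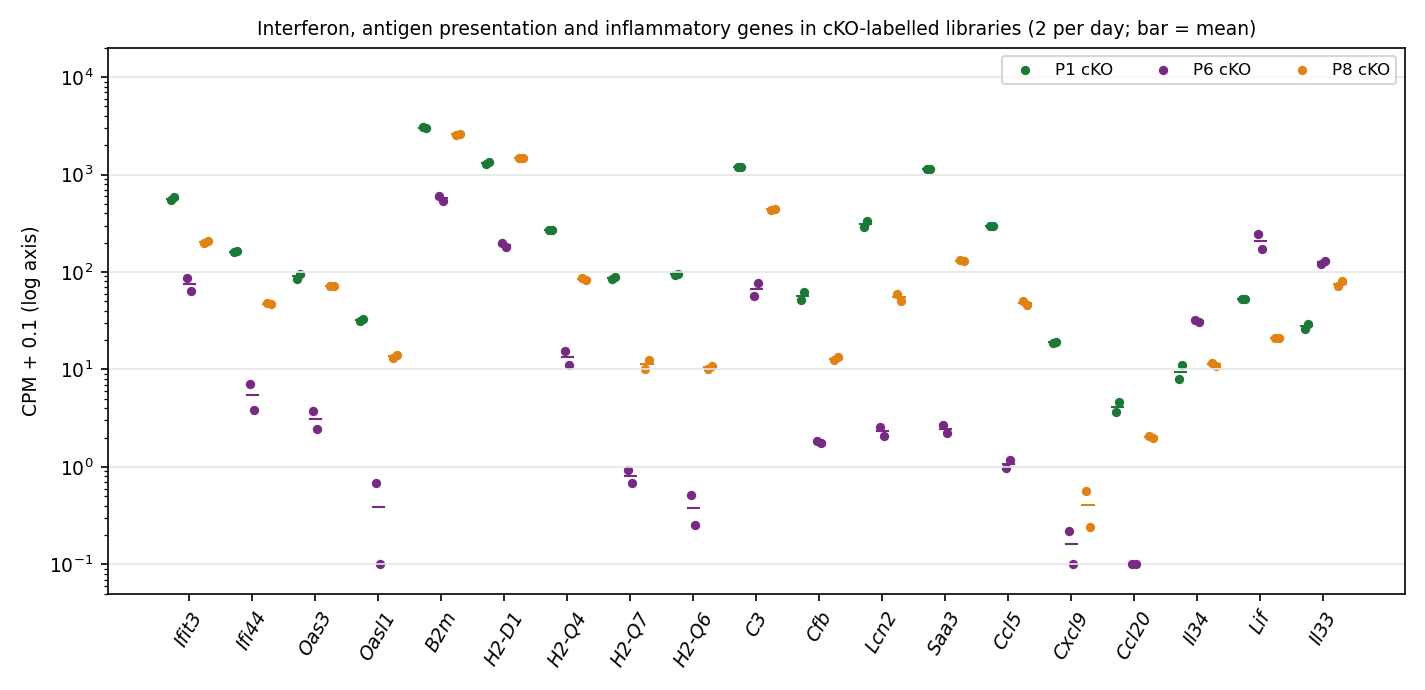
CPM plus 0.1 (y axis, log scale) of 19 interferon, antigen presentation, complement and cytokine genes (x axis) in the cKO-labelled libraries of P1 (green), P6 (purple) and P8 (orange), with a point per library and a bar at the mean of 2. The first 16 genes are lower in both P6 libraries than in both P1 libraries and *Il34*, *Lif* and *Il33* are higher.

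Most chemokine and cytokine genes fell. Of 36 tested 24 fell, 3 rose and 9 were not called, with a median of -1.91. *Ccl5*, which draws T cells and monocytes, was at 293 and 297 CPM at P1 and 0.868 and 1.07 CPM at P6 (log2 fold change -8.25, standard error 0.35, edgeR adjusted p = 2.42e-07). *Cxcl9*, a chemokine induced by interferon-gamma, was at 18.8 and 19.03 CPM at P1 and 0.122 and 0 CPM at P6 (log2 fold change -8.22, standard error 0.75, edgeR adjusted p = 2.83e-05). *Ccl20*, the ligand of CCR6, was at 3.57 and 4.49 CPM at P1 and had no read in either P6 library, which makes it at least 174-fold lower. The 3 that rose were all cytokines with a role in glial or myeloid cells. *Il33*, an alarmin, was at 26.1 and 29.3 CPM at P1 and 121 and 129 CPM at P6 (log2 fold change 2.18, standard error 0.12, edgeR adjusted p = 1.3e-06). *Lif*, a cytokine that acts on astrocyte differentiation through STAT3, was at 52.6 and 53.1 CPM at P1 and 246 and 174 CPM at P6 (log2 fold change 1.99, standard error 0.15, edgeR adjusted p = 7.41e-06). *Il34*, a ligand of the microglial receptor CSF1R, was at 7.94 and 10.9 CPM at P1 and 31.8 and 30.7 CPM at P6 (log2 fold change 1.73, standard error 0.15, edgeR adjusted p = 1.9e-05). For all 3 both P6 libraries exceeded both P1 libraries.

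Of 17 complement genes 8 fell and 3 rose, and of 31 reactive astrocyte genes 16 fell and 9 rose, with medians of -0.78 and -0.80. *C3*, the central complement component, was at 1190.2 and 1187 CPM at P1 and 56.4 and 76.5 CPM at P6 (log2 fold change -4.16, standard error 0.12, edgeR adjusted p = 2.59e-08). *Cfb*, the protease of the alternative pathway, was at 51.3 and 62.4 CPM at P1 and 1.77 and 1.66 CPM at P6 (log2 fold change -5.05, standard error 0.26, edgeR adjusted p = 6.81e-07), and *C4b* of the classical pathway at 203 and 199.8 CPM at P1 and 33.9 and 35.8 CPM at P6 (log2 fold change -2.53, standard error 0.058, edgeR adjusted p = 6.11e-09). The step of *C4b* was larger than with the WT label, where it was at 76.5 and 78.5 CPM at P1 and 47.5 and 50.3 CPM at P6 (difference -1.87 on the log2 scale, edgeR adjusted p = 4.05e-07). *Lcn2*, which binds iron-carrying siderophores and marks reactive astrocytes, was at 286 and 337 CPM at P1 and 2.47 and 1.99 CPM at P6 (log2 fold change -7.13, standard error 0.26, edgeR adjusted p = 9.01e-08). *Emp1*, a membrane protein on the same list, moved the other way, at 34.4 and 35.6 CPM at P1 and 684 and 676 CPM at P6 (log2 fold change 4.28, standard error 0.77, edgeR adjusted p = 0.00202). The list called reactive thus held some of the largest changes in both directions.

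The abundant genes that fell most included innate immune genes outside these lists. *Saa3* (ENSMUSG00000040026, GRCm38 chromosome 7, 46711998 to 46715700, minus strand), an acute-phase serum amyloid, was at 1130.2 and 1144 CPM at P1 and 2.59 and 2.13 CPM at P6 (log2 fold change -8.91, standard error 0.29, edgeR adjusted p = 4.24e-08). *Marco*, a scavenger receptor of macrophages, was at 981 and 971 CPM at P1 and 3.0 and 2.44 CPM at P6 (log2 fold change -8.48, standard error 0.11, edgeR adjusted p = 3.35e-10), and *Fpr1*, a receptor for bacterial formyl peptides, at 127 and 136 CPM at P1 and 0.838 and 0.296 CPM at P6 (log2 fold change -7.85, standard error 0.35, edgeR adjusted p = 3.15e-07). At P8 *Marco* was at 96.1 and 106 CPM in the cKO-labelled libraries and at 4.25 and 4.36 CPM in the WT-labelled ones.

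Markers of microglia and macrophages were at high levels in every library, although the cultures had been shaken. The 19 tested members summed to 6956 and 6898 CPM at P1 and to 6311 and 6274 CPM at P6, and none was at 0. Of them 5 fell and 2 rose, with a median of -0.25. *Aif1*, the cytoskeletal protein IBA1, was at 75.5 and 81.5 CPM at P1 and 19.8 and 19.2 CPM at P6 (log2 fold change -2.01, standard error 0.082, edgeR adjusted p = 1.91e-07). *Ptprc*, the leukocyte antigen CD45, was at 269.8 and 222 CPM at P1 and 86.4 and 93.4 CPM at P6 (log2 fold change -1.45, standard error 0.13, edgeR adjusted p = 2.37e-05). *Trem2*, a microglial lipid receptor, rose from 69.2 and 63.2 to 141 and 132 CPM (log2 fold change 1.05, standard error 0.081, edgeR adjusted p = 9.44e-06). The fractalkine receptor *Cx3cr1* at 37.8 and 44.8 CPM at P1 and 42.5 and 52.4 CPM at P6 and the purinergic receptor *P2ry12* at 18.2 and 17.6 CPM at P1 and 15.6 and 13.6 CPM at P6 were not called, with log2 fold changes of 0.20 and -0.29. The summed markers fell by less than the lists above, and their part in those falls was not tested. In bulk RNA fewer cells of a type and less RNA per cell cannot be told apart.

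Immediate-early genes rose. Of 16 tested 11 rose and none fell, with a median of 1.58, and their summed level went from 601 and 608 CPM to 1856 and 1499.6 CPM. *Fosb* (ENSMUSG00000003545, GRCm38 chromosome 7, 19302696 to 19310051, minus strand), an AP-1 subunit, was at 5.13 and 3.35 CPM at P1 and 141 and 108 CPM at P6 (log2 fold change 4.87, standard error 0.26, edgeR adjusted p = 8.23e-07). *Egr3*, a zinc-finger factor, was at 2.01 and 3.002 CPM at P1 and 81.2 and 62.3 CPM at P6 (log2 fold change 4.84, standard error 0.20, edgeR adjusted p = 2.2e-07), and the orphan nuclear receptor *Nr4a1* at 4.79 and 5.21 CPM at P1 and 120.0 and 77.9 CPM at P6 (log2 fold change 4.31, standard error 0.22, edgeR adjusted p = 7.97e-07). *Egr1* was at 92.8 and 90.3 CPM at P1 and 478 and 386 CPM at P6 (log2 fold change 2.24, standard error 0.088, edgeR adjusted p = 1.42e-07). In each of these 4 the first P6 library was above the second, and both were far above P1. *Jun* at 151 and 166 CPM at P1 and 250.3 and 211 CPM at P6 was not called.

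All 16 immediate-early genes rose with the WT label, with a median of 2.83. The cKO step was smaller for 13 of them at an adjusted p below 0.05. *Egr3* reached 188 and 182 CPM in the WT-labelled P6 libraries, and the difference of its steps was -2.13 on the log2 scale, edgeR adjusted p = 0.000605. For *Nr4a1* the WT-labelled P6 libraries held 184 and 181 CPM and the difference was -2.0 on the log2 scale, edgeR adjusted p = 0.00159. At P8 the list summed to 798 and 814 CPM in the cKO-labelled libraries, nearer to P1 than to P6.

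Matrix genes changed in both directions. Of 33 collagen chains 12 rose and 9 fell (median 0.17), of 12 small leucine-rich proteoglycans 6 rose and 3 fell (median 0.45), and of 33 glycoprotein and elastic matrix genes 12 rose and 8 fell (median 0.37). Summed levels were higher at P6 in all 3 lists, from 6409 and 6517 to 9358 and 8979 CPM for the collagens and from 10419.6 and 10169.9 to 23611 and 23454 CPM for the glycoproteins. *Fn1*, fibronectin, made up much of that difference and was at 3205 and 2937 CPM at P1 and 9729 and 9807 CPM at P6 (log2 fold change 1.67, standard error 0.079, edgeR adjusted p = 4.73e-07). *Thbs1*, a thrombospondin that astrocytes secrete to promote synapses, was at 2172 and 2190.4 CPM at P1 and 5785 and 5639.6 CPM at P6 (log2 fold change 1.39, standard error 0.036, edgeR adjusted p = 1.08e-08).

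Leaving aside chains with a mean under 1 CPM, the collagen that rose most was *Col2a1* (ENSMUSG00000022483, GRCm38 chromosome 15, 97975602 to 98004695, minus strand), the fibrillar collagen of cartilage, at 13.2 and 11.7 CPM at P1 and 585 and 545 CPM at P6 (log2 fold change 5.50, standard error 0.10, edgeR adjusted p = 1.77e-09). *Col4a3*, a chain of specialised basement membranes, was at 1.63 and 1.69 CPM at P1 and 45.98 and 45.7 CPM at P6 (log2 fold change 4.79, standard error 0.16, edgeR adjusted p = 4.25e-08). The proteoglycans *Prelp*, *Fmod* and *Omd* rose as well. *Prelp*, which ties basement membrane to collagen, was at 367 and 353 CPM at P1 and 2047 and 1887 CPM at P6 (log2 fold change 2.45, standard error 0.049, edgeR adjusted p = 3.29e-09). *Fmod*, a regulator of collagen fibrils, was at 131 and 119.7 CPM at P1 and 606 and 530.4 CPM at P6 (log2 fold change 2.18, standard error 0.069, edgeR adjusted p = 3.64e-08), and *Omd* at 5.02 and 4.62 CPM at P1 and 33.7 and 34.8 CPM at P6 (log2 fold change 2.83, standard error 0.14, edgeR adjusted p = 5.88e-07).

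Other matrix genes fell. *Col3a1* (ENSMUSG00000026043, GRCm38 chromosome 1, 45311538 to 45349706, plus strand), the collagen of loose connective tissue, was at 369 and 370.1 CPM at P1 and 22.8 and 25.9 CPM at P6 (log2 fold change -3.92, standard error 0.066, edgeR adjusted p = 1.2e-09). *Col6a3*, a microfibril chain, was at 29.02 and 29.4 CPM at P1 and 6.44 and 5.62 CPM at P6 (log2 fold change -2.28, standard error 0.093, edgeR adjusted p = 1.92e-07). Decorin, *Dcn*, was at 89.6 and 89.7 CPM at P1 and 1.93 and 3.28 CPM at P6 (log2 fold change -5.10, standard error 0.18, edgeR adjusted p = 7.88e-08). Lumican, *Lum*, was at 8.87 and 7.35 CPM at P1 and had no read in either P6 library, which makes it at least 352-fold lower. *Col5a2*, a chain of the fibrillar type V collagen, rose, at 937 and 918 CPM at P1 and 1912 and 1829.6 CPM at P6 (log2 fold change 1.01, standard error 0.031, edgeR adjusted p = 2.8e-08). Neither type I chain was called: *Col1a1* was at 1087 and 1065 CPM at P1 and 1609 and 1479 CPM at P6 (log2 fold change 0.52) and *Col1a2* at 849 and 844 CPM at P1 and 930.2 and 878 CPM at P6 (log2 fold change 0.10), and neither reached the fold change required.

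*Col3a1*, *Col6a3*, *Dcn*, *Lum* and the type I chains are also on the list of meningeal fibroblast markers. Of its 18 tested members 10 fell and 3 rose, with a median of -1.20. Their summed level was nonetheless 4136 and 4047 CPM at P1 and 6591 and 5146 CPM at P6, of which *Igfbp2*, a growth factor binding protein, made up the larger part of the difference, at 1244 and 1270.0 CPM at P1 and 3419.9 and 2153 CPM at P6. *Lum* alone was at 0 in both P6 libraries. *Twist1*, a mesenchymal transcription factor, was at 13.7 and 13.6 CPM at P1 and 40.9 and 39.7 CPM at P6 (log2 fold change 1.57, standard error 0.071, edgeR adjusted p = 3.64e-07). What fibroblasts contributed to the matrix changes was not tested.

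With the WT label more of the matrix genes rose. There 27 of 33 collagen chains, 9 of 12 proteoglycans, 27 of 33 glycoproteins and 16 of 18 fibroblast markers rose, with medians of 1.77, 2.66, 1.90 and 3.39. The medians with the cKO label were 0.17, 0.45, 0.37 and -1.20, so that of these lists the fibroblast markers had medians of opposite sign. The cKO step was more negative at an adjusted p below 0.05 for 18 collagens, 6 proteoglycans, 22 glycoproteins and 14 fibroblast markers. *Col3a1* was at 33.8 and 30.8 CPM at P1 and 1212 and 1206 CPM at P6 in the WT-labelled libraries, so the label with the higher level changed between the days, and the difference of the steps was -9.15 on the log2 scale, edgeR adjusted p = 6.91e-11. *Dcn* was at 9.12 and 8.55 CPM at P1 and 174 and 181 CPM at P6 and its difference was -9.43 on the log2 scale, edgeR adjusted p = 2.04e-08. *Col1a2* was at 74.8 and 74.3 CPM at P1 and 2324 and 2384 CPM at P6 there, a rise that the cKO-labelled cultures did not share (difference -4.89 on the log2 scale, edgeR adjusted p = 6.91e-11). *Col2a1*, *Col4a3* and *Prelp* had the larger step under the cKO label, with differences of 1.01, 2.60 and 1.94. At P8 the cKO-labelled libraries held 1118 and 1170.0 CPM of *Col3a1* and 45.7 and 44.7 CPM of *Dcn*, well above P6.

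**Figure D3:**
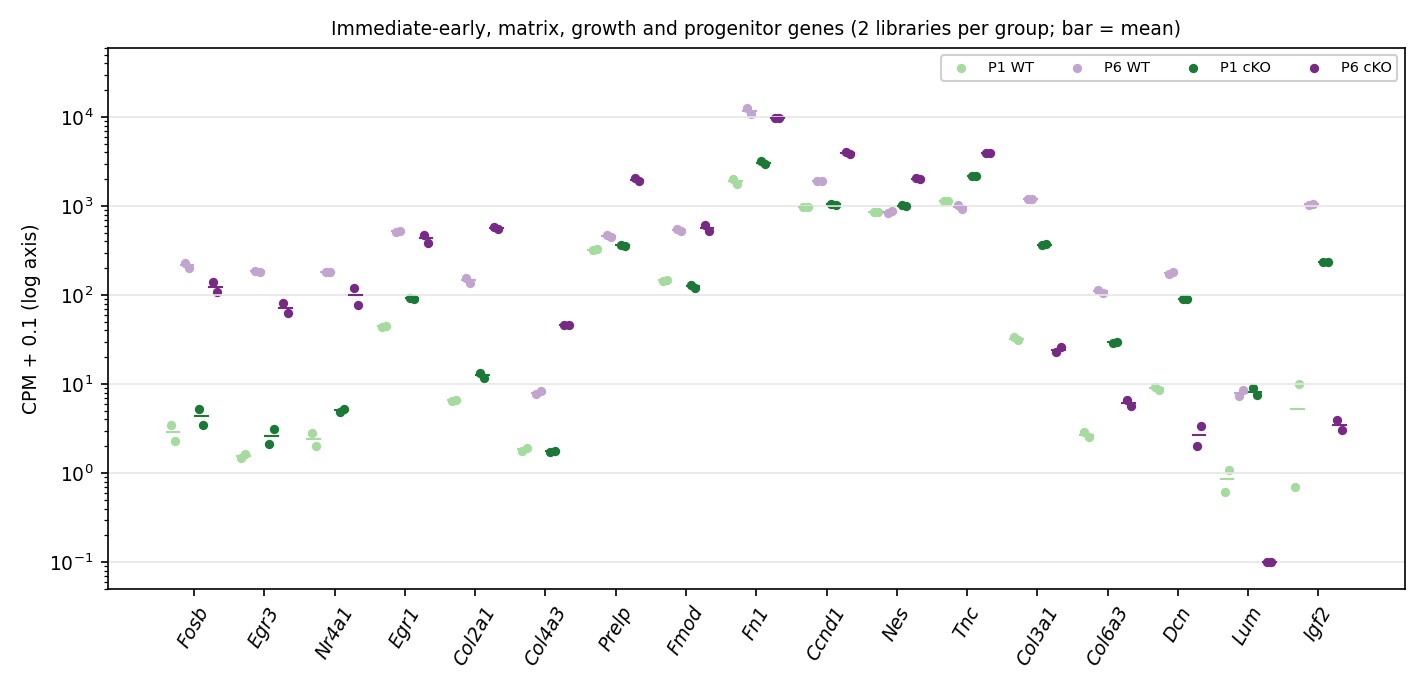
CPM plus 0.1 (y axis, log scale) of 17 immediate-early, matrix, growth and progenitor genes (x axis) in the P1 (green) and P6 (purple) libraries, pale for the WT label and dark for the cKO label, with a point per library and a bar at the mean of 2. From *Col3a1* to *Igf2* on the right the WT-labelled cultures go up from P1 to P6 and the cKO-labelled cultures go down.

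Growth factor genes showed single large changes within lists that split. Of 15 genes of the insulin-like growth factor axis 6 rose and 5 fell (median 0.03). *Igf2* (ENSMUSG00000048583, GRCm38 chromosome 7, 142650766 to 142666816, minus strand), an imprinted growth factor, was at 233 and 235 CPM at P1 and 3.87 and 2.96 CPM at P6 (log2 fold change -6.10, standard error 0.85, edgeR adjusted p = 0.000434). With the WT label it was at 0.603 and 9.81 CPM at P1 and 1038 and 1062 CPM at P6, where the 2 P1 libraries were far apart, and the difference of steps was -13.70 on the log2 scale, edgeR adjusted p = 7.53e-05. *Igf1* was at 166 and 169.5 CPM at P1 and 389 and 453 CPM at P6 (log2 fold change 1.33, standard error 0.067, edgeR adjusted p = 6.55e-07), and *Igfbp5*, which binds both ligands, at 981 and 982 CPM at P1 and 2944 and 3145 CPM at P6 (log2 fold change 1.63, standard error 0.043, edgeR adjusted p = 1.23e-08). The annotated span of *Igf2* overlaps *Igf2os* and *Gm49394*.

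Among 41 genes of BMP and TGF-beta signalling 12 rose and 6 fell, with a median of 0.28. The BMP-family ligand *Gdf6* was at 5.71 and 6.72 CPM at P1 and 43.8 and 41.2 CPM at P6 (log2 fold change 2.77, standard error 0.23, edgeR adjusted p = 1.68e-05) and the BMP antagonist *Grem1* at 1.48 and 1.32 CPM at P1 and 14.1 and 12.9 CPM at P6 (log2 fold change 3.27, standard error 0.19, edgeR adjusted p = 1.41e-06). *Bmpr1b*, a type I BMP receptor, was at 5.07 and 5.11 CPM at P1 and 22.3 and 20.6 CPM at P6 (log2 fold change 2.07, standard error 0.15, edgeR adjusted p = 6.73e-06). A ligand, an antagonist and a receptor thus rose together, and the *Id* genes that BMP signals switch on were called in 1 of 4 cases, *Id1*, at 61.2 and 61.2 CPM at P1 and 129 and 119 CPM at P6 (log2 fold change 1.02, standard error 0.087, edgeR adjusted p = 1.93e-05).

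Of 14 Wnt ligands 2 rose and 4 fell, of 27 receptors, antagonists and R-spondins 13 rose and 2 fell, and of 11 canonical target genes 3 rose and 2 fell, with medians of -0.05, 0.61 and 0.34. Without the first P1 or the first P6 library 1 ligand rose, and without the second of either 1 target gene rose. *Wnt7a*, a ligand that acts on brain vessels and glia, was at 11.4 and 14.1 CPM at P1 and 3.53 and 3.55 CPM at P6 (log2 fold change -1.85, standard error 0.21, edgeR adjusted p = 0.000118). *Wnt2* was at 1.73 and 2.33 CPM at P1 and 0.289 and 0.467 CPM at P6 (log2 fold change -2.42, standard error 0.36, edgeR adjusted p = 0.000613), while in the WT-labelled libraries it was at 0.134 and 0.332 CPM at P1 and 16.3 and 15.04 CPM at P6 (difference -8.43 on the log2 scale, edgeR adjusted p = 6.27e-06). *Wif1*, a secreted inhibitor of Wnt proteins, was at 1.28 and 1.40 CPM at P1 and 10.9 and 9.71 CPM at P6 (log2 fold change 2.95, standard error 0.19, edgeR adjusted p = 3.3e-06). *Ccnd1*, the cyclin D1 gene that Wnt and mitogens switch on, was at 1056 and 1036 CPM at P1 and 4018 and 3853 CPM at P6 (log2 fold change 1.91, standard error 0.028, edgeR adjusted p = 5.57e-10). Its step exceeded that with the WT label by 0.96 on the log2 scale, edgeR adjusted p = 3.3e-07. It had the largest rise of the 11 target genes, whose log2 fold changes ran from -3.93 to 1.91, with 4 below 0. *Axin2*, another of them, was lower in both P6 libraries but was not called.

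Astrocyte markers were present in all 4 libraries and split between the directions. Of 26 tested 5 rose and 9 fell, with a median of -0.08 and summed levels of 4504 and 4576 CPM at P1 and 3620 and 3838 CPM at P6. *Gfap*, the filament protein of astrocytes, was at 578 and 559 CPM at P1 and 426 and 464 CPM at P6 and was not called (log2 fold change -0.35). *Aqp4*, the water channel of endfeet, was at 564 and 562 CPM at P1 and 248 and 299 CPM at P6 (log2 fold change -1.04, standard error 0.071, edgeR adjusted p = 4.53e-06). *Aldh1l1*, a folate enzyme used as a pan-astrocyte marker, was at 233 and 231 CPM at P1 and 184 and 179 CPM at P6 and was not called (log2 fold change -0.36). *S100b*, a calcium-binding protein of maturing astrocytes, was at 1.43 and 2.44 CPM at P1 and 17.9 and 18.97 CPM at P6 (log2 fold change 3.25, standard error 0.22, edgeR adjusted p = 4.64e-06). *Slc4a4*, the bicarbonate transporter, was at 109 and 118 CPM at P1 and 252 and 279 CPM at P6 (log2 fold change 1.22, standard error 0.069, edgeR adjusted p = 1.29e-06), and the phospholipase *Pla2g7* at 98.3 and 105 CPM at P1 and 22.6 and 24.9 CPM at P6 (log2 fold change -2.10, standard error 0.063, edgeR adjusted p = 2.56e-08).

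Progenitor genes also split, with 4 of 18 rising and 4 falling and a median of 0.02. Log2 fold changes ran from -3.55 to 1.41, with 9 of them below 0, and the genes named next both rose. *Nes*, the intermediate filament nestin, was at 1029.8 and 997 CPM at P1 and 2042 and 2015 CPM at P6 (log2 fold change 1.0, standard error 0.041, edgeR adjusted p = 1.86e-07). *Tnc*, the matrix protein tenascin C of germinal zones, was at 2152 and 2149 CPM at P1 and 3965 and 3966 CPM at P6 (log2 fold change 0.88, standard error 0.043, edgeR adjusted p = 5.27e-07). Neither rose with the WT label, where *Nes* was at 864 and 856 CPM at P1 and 839 and 889.5 CPM at P6 and *Tnc* at 1131 and 1132 CPM at P1 and 1031 and 936 CPM at P6, and the differences of steps were 0.99 on the log2 scale, edgeR adjusted p = 3.64e-06 and 1.08 on the log2 scale, edgeR adjusted p = 2.82e-06. Of 13 synapse factors secreted by astrocytes 4 rose and 2 fell, among them the heparin-binding *Mdk* at 17.3 and 17.5 CPM at P1 and 2.50 and 2.80 CPM at P6 (log2 fold change -2.71, standard error 0.19, edgeR adjusted p = 4.81e-06). A list of 6 astrocyte development genes had been picked on these samples and is no independent evidence of direction. Of its members 2 rose and none fell. *Shh*, the morphogen sonic hedgehog, was at 44.1 and 42.8 CPM at P1 and 166 and 165 CPM at P6 (log2 fold change 1.93, standard error 0.13, edgeR adjusted p = 3.25e-06), and *Gpr37l1*, an orphan receptor of astrocytes, at 81.1 and 82.2 CPM at P1 and 145 and 156 CPM at P6 (log2 fold change 0.88, standard error 0.083, edgeR adjusted p = 3.52e-05).

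Each list of markers for the other cell types had rises and falls, and most of their summed levels were low. The mural cell markers were the exception, with sums of 4222 and 4220 CPM at P1 and 5112 and 4517 CPM at P6. *Acta2*, which is also counted with the smooth muscle contractile genes below, made up most of these sums. What mural cells contributed was not tested. Of 15 oligodendrocyte lineage markers 2 rose and 4 fell (2 fell without the first P6 library), with sums of 240.1 and 246 CPM at P1 and 300.1 and 308 CPM at P6. *Cldn11*, a claudin of myelin and of arachnoid cells, was at 2.11 and 2.98 CPM at P1 and 0.0609 and 0.0933 CPM at P6 (log2 fold change -5.01, standard error 0.59, edgeR adjusted p = 0.000154). Only 6 of 20 neuron markers passed the filter, of which 4 rose and 1 fell (median 0.82). Their sums were 279 and 206 CPM at P1 and 414 and 418 CPM at P6. Of 10 endothelial markers 2 rose and 4 fell, and *Cdh5*, the cadherin of endothelial junctions, was at 13.5 and 13.6 CPM at P1 and 1.11 and 0.607 CPM at P6 (log2 fold change -3.97, standard error 0.21, edgeR adjusted p = 7.54e-07). The summed level of the endothelial markers nonetheless went up, from 118 and 115 CPM at P1 to 174 and 199 CPM at P6. Mural cell markers rose in 3 of 11 and fell in 2. Ependymal and choroid plexus markers rose in 1 of 11 and fell in 6 (median -0.97), where the rise was lost without the first P1 or the second P6 library. The ependymal and choroid plexus sums were 326 and 333 CPM at P1 and 195 and 194 CPM at P6. Of 39 homeobox and regional transcription factors 8 rose and 9 fell. *En1* and *Lmx1b*, factors of the midbrain and hindbrain border, were at 2.70 and 2.95 CPM at P1 and 12.05 and 11.5 CPM at P6 and at 1.82 and 3.37 CPM at P1 and 11.01 and 11.6 CPM at P6 (log2 fold change 2.06, standard error 0.24, edgeR adjusted p = 0.000123, and log2 fold change 2.13, standard error 0.32, edgeR adjusted p = 0.000636). *Pax3* and *Zic1*, dorsal and caudal factors, were at 15.3 and 13.1 CPM at P1 and 5.35 and 5.01 CPM at P6 and at 48.6 and 45.5 CPM at P1 and 17.1 and 17.7 CPM at P6 (log2 fold change -1.45, standard error 0.15, edgeR adjusted p = 7.6e-05, and log2 fold change -1.44, standard error 0.11, edgeR adjusted p = 8.19e-06).

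Few proliferation genes were called. Of 39 DNA replication genes 1 rose and 2 fell (median -0.31), and of 39 mitosis genes 4 rose and none fell (median 0.09), both under the shares for all autosomal genes. Small decreases were common among the replication genes, of which 36 had a log2 fold change below 0. Their sum was 1337 and 1323 CPM at P1 and 1148 and 1100 CPM at P6. Of the mitosis genes 25 had a log2 fold change above 0. Without the first P1 library 7 replication genes fell, without the second 5, and without the first P6 library 7 fell and none rose, while 2 mitosis genes rose. *Mki67*, a marker of cycling cells, was at 175 and 169 CPM at P1 and 153 and 171 CPM at P6 and *Top2a* at 147 and 149.7 CPM at P1 and 130.0 and 138 CPM at P6, with log2 fold changes of -0.08 and -0.15 that were not called. Of 19 CDK inhibitors and p53 targets 3 rose and 1 fell (2 without the second P1 library), with *Cdkn2a*, the locus of p16 and p19ARF, at 8.48 and 6.99 CPM at P1 and 33.3 and 26.1 CPM at P6 (log2 fold change 1.94, standard error 0.21, edgeR adjusted p = 8.95e-05). Of 22 cholesterol synthesis genes 7 rose and none fell (median 0.35), and *Insig1*, a sterol-regulated brake on the pathway, was at 50.2 and 51.6 CPM at P1 and 154 and 147 CPM at P6 (log2 fold change 1.56, standard error 0.070, edgeR adjusted p = 3.31e-07). Of 16 smooth muscle contractile genes 4 rose and 1 fell. None of the 10 PRC2 subunit genes was called by edgeR, although 1 fell without the second P1 or the first P6 library, with a median of 0.04 and sums of 501 and 511 CPM at P1 and 499.8 and 512 CPM at P6.

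Among genes with a mean of at least 50 CPM the largest rises beside *Col2a1*, *Fosb*, *Nr4a1* and *Emp1* included an enzyme and 2 secreted proteins. *Aldh1a1*, which makes retinoic acid, was at 41.6 and 44.95 CPM at P1 and 629 and 620.1 CPM at P6 (log2 fold change 3.85, standard error 0.070, edgeR adjusted p = 1.78e-09). *Fgf1*, a growth factor without a signal peptide, was at 9.01 and 9.39 CPM at P1 and 103 and 104 CPM at P6 (log2 fold change 3.49, standard error 0.13, edgeR adjusted p = 1.01e-07). *Tinagl1*, a matricellular protein, was at 50.6 and 58.3 CPM at P1 and 632 and 555 CPM at P6 (log2 fold change 3.45, standard error 0.10, edgeR adjusted p = 2.15e-08). In the cKO-labelled P8 libraries they were at 167 and 173, 11.9 and 10.7 and 121 and 112 CPM, each below P6. In the same libraries *Col2a1* was at 52.7 and 49.3 CPM and *Fosb* at 1.91 and 1.99 CPM. *Nr4a1* was at 8.68 and 8.12 CPM there and *Emp1* at 35.6 and 40.4 CPM, all below P6 too.

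The step from P1 to P6 was finally compared between the labels for every gene. At an adjusted p below 0.05 it differed for 2627 autosomal genes (15.3%), more positive under the cKO label for 1207 (7.01%) and more negative for 1420 (8.24%). DESeq2 called 1957 more positive and 1948 more negative, so the excess of negative differences was not seen with it. Of the 1885 genes that rose in the cKO-labelled cultures, 1000 also rose in the WT-labelled cultures and 36 fell there. Of the 1801 that fell, 1099 fell in both and 156 rose with the WT label, and for all 156 the steps differed by the test. Among genes called with the cKO label only, the steps differed for 350 of 849 that rose and 174 of 546 that fell, and for the remaining genes a difference between labels was not shown.

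The extremes of this difference came from genes absent in one group. *Epyc*, a proteoglycan of cartilage, was at 1.85 and 1.63 CPM at P1 and 0 and 0 CPM at P6 with the cKO label and at 0 and 0 CPM at P1 and 17.2 and 20.4 CPM at P6 with the WT label. *Prdm6*, a repressor of smooth muscle genes, was at 0.782 and 0.965 CPM at P1 and 0 and 0 CPM at P6 and at 0 and 0 CPM at P1 and 17.5 and 20.3 CPM at P6. Each was thus present at P1 and absent at P6 with one label and the reverse with the other. *Arg1*, arginase, was at 38.9 and 43.9 CPM at P1 and 2.15 and 1.68 CPM at P6 and at 11.2 and 12.98 CPM at P1 and 0 and 0 CPM at P6, and *Prnd*, the prion-like doppel, at 50.6 and 44.3 CPM at P1 and 9.47 and 6.71 CPM at P6 and at 17.9 and 21.5 CPM at P1 and 0 and 0 CPM at P6, so that both fell with either label and kept some reads at P6 with the cKO label alone.

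**Figure D4:**
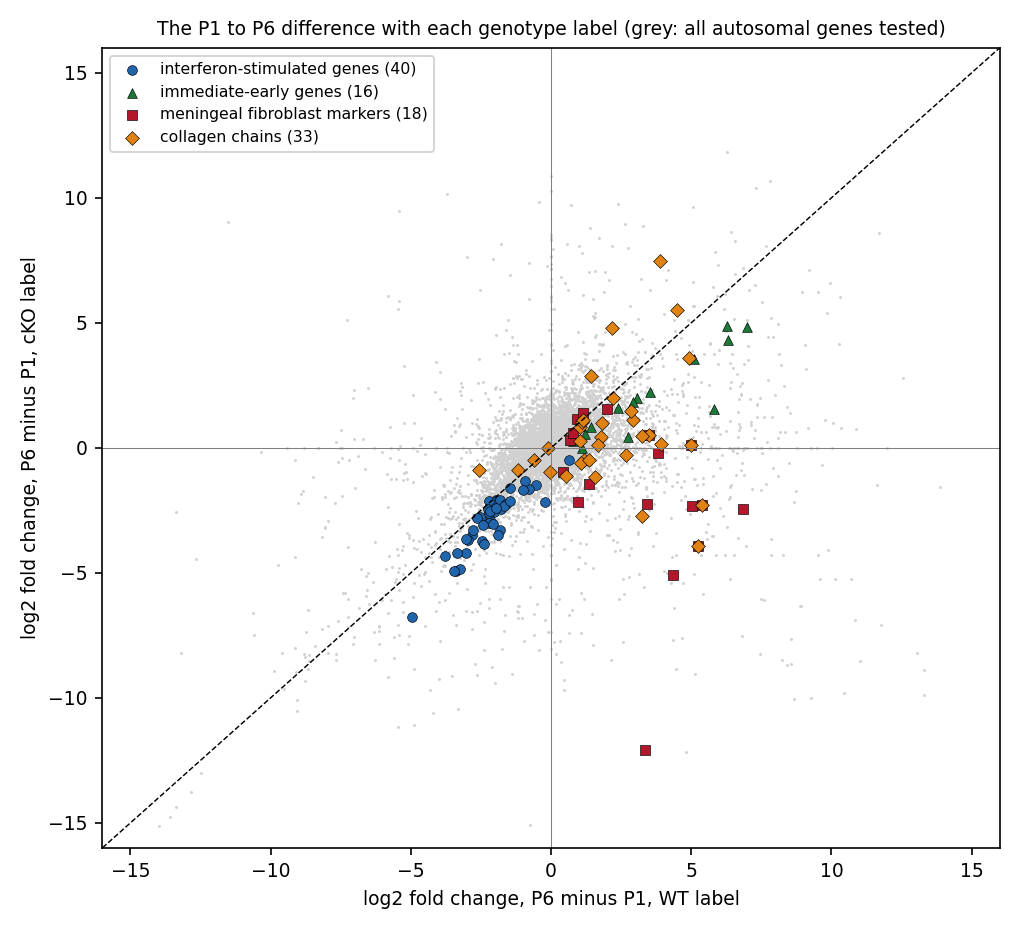
Log2 fold change from P1 to P6 with the WT label (x axis) and the cKO label (y axis) for 17223 autosomal genes (grey), with 40 interferon-stimulated genes, 16 immediate-early genes, 18 meningeal fibroblast markers and 33 collagen chains marked, and a dashed line where the steps are equal. Interferon-stimulated genes lie near the line in the lower left, immediate-early genes below it on the right, and most fibroblast markers at positive WT and negative cKO values, and collagens that are also fibroblast markers carry both symbols.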

How the data were processed

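The authors deposited counts of reads for 18903 genes in 12 libraries, as whole numbers and without normalization, and these were the input. According to the methods and the submitters' processing notes, Hisat2 mapped the reads to GRCm38. Counting program, annotation and strand setting were not given in the sources used here, and reads of overlapping genes and of close copies cannot be assigned with certainty. Of the 96 genes named with values, 40 overlap another annotated gene. Positions came from GENCODE vM21 on GRCm38, which held 18861 of the identifiers, and promoter sequences came from RefSeq (GRCm38.p6).

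In R 4.3.3, edgeR 4.0.16 (filterByExpr, TMM, glmQLFit, glmQLFTest) was fitted to all 12 libraries with 6 group means, which leaves 6 residual degrees of freedom, and 17938 genes were tested. Benjamini-Hochberg adjustment ran over all of them. The contrast was P6 minus P1 with the cKO label. The difference between labels was that contrast minus the same with the WT label, at an adjusted p below 0.05. The methods do not say whether the p of their cut-offs was adjusted, so both forms were counted. An exact permutation test of 2 against 2 libraries gives no p below 0.333. Library totals ran from 54413504 to 89183250 counts. Replicates differed by more than counting noise (chi-square per degree of freedom 30.5 at P1 and 42.0 at P6 with the cKO label), and p-values cover the spread between these samples, which may be technical. Floors of 3 counts over a group cover counting error only. DESeq2 1.42.0, limma 3.58.1 and the other alternatives are reported in the closing section.

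The members and gene lists were chosen with earlier results of these data known. Genes were named by a rule: the 12 largest rises and falls among called, separated genes at a mean level of 1 CPM or more, and the 8 largest at 50 CPM or more. In each list with a called member it took the 3 largest called rises and falls and the 2 highest means, and in each marker list the first 3 tested. It added the 4 largest differences between labels each way and *Zmynd8*, and fewer were named than it gives. Certain genes of these lists are counted with them but not reported here by name. *Gbp2*, *Gbp3*, *Rsad2* and *Isg15* were named for their promoter match, and *Ifi27* and *Id1* after their values were seen. On simulated data for this comparison with 17791 genes, 68% of 100 genes changed 2-fold and 89% of 100 changed 4-fold were recovered, with 6 false calls.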

Additional observations from a re-analysis of the deposited data

Results flagged for a closer look

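For 54 of the genes named above, the step from P1 to P6 differed between the cKO-labelled and the WT-labelled cultures at an edgeR adjusted p below 0.05, and values are the cKO step minus the WT step on the log2 scale. The share of all autosomal genes with such a difference was 15.3%. Matrix and fibroblast genes with a more negative step had -9.15 for *Col3a1*, -9.43 for *Dcn*, -7.67 for *Col6a3*, -4.89 for *Col1a2*, -2.98 for *Col1a1*, -0.96 for *Fn1* and -0.42 for *Twist1*. *Igf2* had -13.70, *Cldn11* -9.16, *Cdh5* -9.08, *Wnt2* -8.43, *Mdk* -3.22, *Zic1* -2.79, *Lmx1b* -2.01, *Wif1* -1.95 and *Cdkn2a* -1.34. Immediate-early genes had a smaller rise with the cKO label, by -2.13 for *Egr3*, -2.0 for *Nr4a1*, -1.42 for *Fosb*, -1.30 for *Egr1* and -0.67 for *Jun*. Immune genes with a more negative step were *C4b* at -1.87, *Gbp2* at -1.28, *Ifi27* at -1.12 and *Marco* at -0.81.

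Matrix genes with a more positive step were *Col4a3* at 2.60, *Prelp* at 1.94, *Col2a1* at 1.01 and *Thbs1* at 0.21. Signalling genes followed, with 4.13 for *Gdf6*, 2.61 for *Shh*, 1.84 for *Fgf1*, 1.44 for *Bmpr1b*, 1.30 for *Grem1*, 0.96 for *Ccnd1*, 0.76 for *Aldh1a1*, 0.74 for *Tinagl1*, 0.59 for *Id1* and 0.42 for *Igfbp5*. Among glial genes *Tnc* had 1.08, *Nes* 0.99, *Aldh1l1* 0.64, *Gfap* -0.43, *Gpr37l1* -0.87 and *Pla2g7* -1.25. The microglial markers *Cx3cr1*, *Aif1* and *Trem2* had 0.95, 0.47 and 0.41, and *Zmynd8* had 0.38. Where a group had no read the fitted size is no bound, which holds for *Epyc* at -23.18, *Prdm6* at -22.19, *Lum* at -15.44, *Arg1* at 8.24 and *Prnd* at 10.82. With 2 libraries per group no single library was screened as standing apart.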

How the results depend on the processing

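The counts of genes that rose and fell with the cKO label were recomputed under 19 alternatives (no filter on low counts, DESeq2 and its size factors, edgeR on the 4 libraries compared, the replicate block, a fold change of at least 2, and each library left out). They stayed within 1.5 times of the values reported except where a change of 2-fold was required, with 1015 rises and 1142 falls by adjusted p and 1151 and 1280 by unadjusted p. Leaving out a library gave 1620 to 1859 rises and 1642 to 1812 falls by adjusted p, where the lone library of a group was taken to vary as the other groups do. For the difference between labels DESeq2 called 1957 genes more positive and 1948 more negative with the cKO label, and leaving out a library gave 848 to 1133 and 1160 to 1354. Of the 85 genes named and called, none lost its call or changed sign in any of up to 18 alternatives. The 2-fold requirement was not among these 18. Named genes that changed by less than 2-fold, such as *Tnc* and *Gpr37l1*, would not be called under it. *Zmynd8* stayed between 0.10 and 0.17 on the log2 scale. Of 1254 list counts 39 moved by over 1.5 times, mostly where 2-fold was required.

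The labels give the groups the same replicate numbers, but the numbers did not pair the samples: deviations from the group means correlated at -0.04 between P1 and P6 with the cKO label over 13671 genes. With the replicate number as a block, 1831 genes rose and 1760 fell, 2109 and 1988 by unadjusted p, and 1091 and 1310 differed between labels, and *Zmynd8* changed by 0.14. With 2 libraries per group the precision is limited, and day and sex cannot be told apart between P1 and P6 in any of these settings.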

Other observations

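*Itgam*, the integrin chain CD11b, was listed under 2 overlapping identifiers on the same strand. The second was at 343 and 321 CPM in the P1 libraries with the cKO label and at 0 and 0.0156 CPM in those of P6, one of the largest falls in the table, and the first was at 339 and 232 CPM and at 234 and 305 CPM. Summed over both, the level was 682 and 553 CPM at P1 and 234 and 305 CPM at P6, a log2 ratio of -1.20. The microglia list above holds the first identifier alone, and how reads were divided between them was not given in the sources used here.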
